A study of Caenorhabditis elegans with 12 samples.

Results

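Gonads dissected from XO animals that make oocytes were compared with whole XO animals of the same kind, using 6 of the 12 libraries of the series, chosen by their titles. The tissue compared is an oocyte-making gonad that formed in a male body, and the comparison asks what that gonad holds relative to the body around it. The 3 XO gonad libraries came from young adult fog-1(q253)ts animals kept at 25 °C, with at least 200 gonads in each. The 3 XO whole worm libraries came from young adults of the same strain and temperature, with at least 600 animals picked by hand for each. The other 6 libraries are 3 of gonads and 3 of whole worms from XX animals of this strain, and they are used below only where the XO difference is set against the same difference in XX animals.

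In Caenorhabditis elegans, animals with a single X chromosome develop as males and animals with a pair of X chromosomes as hermaphrodites. The choice between sperm and oocyte is made in the germline by fog-1, fog-3 and the fem genes, and loss of fog-1 turns germ cells that would become sperm into oocytes in either body. The adult germline is a tube with mitotic stem cells at its far end, meiotic cells along its length and growing oocytes that load RNA and protein for the embryo. All 12 libraries carry the fog-1 mutation, so there is no gonad with normal fog-1 among them. Whether every germ cell had turned from sperm to oocyte was not tested.

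The whole worms contain their gonads, and the dissected gonads also contain somatic gonad cells. A gene made only in germ cells is therefore present in both groups, and the comparison measures how concentrated its RNA is in the gonad. In bulk samples, fewer cells of a type and less RNA per cell cannot be told apart. Whether replicates were separate cultures is not stated in the labels. The p-values therefore measure the spread between these samples, which may be technical. Gene counts per library were 13397775, 16140259 and 14328309 in XO gonads and 7912618, 11815117 and 14051532 in XO whole worms.

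Levels are given as CPM, read counts brought to a common library total by the trimmed mean of M-values (TMM). Fold changes are on the log2 scale as gonad over whole worm, with a standard error (SE), and adjusted p-values come from the quasi-likelihood test of edgeR, adjusted by Benjamini and Hochberg's method over all genes tested. A gene is called higher or lower where its adjusted p was under 0.05. Replicates of a group correlated at 0.9907 or above (Pearson's r of log2 CPM across genes). Every replicate pair differed by more than counting noise, with a chi-square per degree of freedom of 5.5 or more and all 6 libraries were counted as separate samples. Each library also deviated from the other 2 of its group with exonic length. Across 5352 genes at 10 CPM or more in gonads, this was strongest for XO gonad replicate 1 (Spearman's rho 0.65, genes not being independent replicates), whose median log2 deviation was 0.15 for 404 genes over 4 kb and -0.18 for 1295 genes under 1 kb.

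Of 11908 genes tested, 4362 (36.6%) were higher and 6127 (51.5%) lower in XO gonads than in XO whole worms, and 1419 did not pass, so that 88.1% were called in either direction. All 3 gonad values lay above all 3 whole worm values for 4406 genes (37%), and all 3 whole worm values above all 3 gonad values for 6166 (51.8%). The sizes differed between the directions. The higher genes centred on 0.60 (median log2 fold change, quartiles 0.47 and 0.73), and 4224 of them lay below 1. For these genes the whole worm level was at the median 65.8% of the gonad level. Only 138 genes (1.16% of those tested) were called higher by at least 2-fold, against 5686 (47.7%) called lower by at least 2-fold. A single gene passed a log2 fold change of 2 upward: Y35H6.1, at 1.65, 1.41 and 2.24 CPM in XO gonads and 0, 0.582 and 0.289 CPM in XO whole worms (2.42, SE 0.54), named after its values were seen.

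The lower genes centred on -4.53 (median, quartiles -5.69 and -2.78). Of them, 4436 were below -3, 2479 below -5 and 495 below -7. No gene that reached 1 CPM in XO gonads had 0 counts in all 3 XO whole worm libraries. In the other direction, 270 genes that reached 1 CPM in XO whole worms had 0 counts in all 3 XO gonad libraries. Among 5413 genes with at least 10 CPM in XO gonads, 2959 had a log2 fold change between 0.4 and 0.8.

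**Figure D1:**
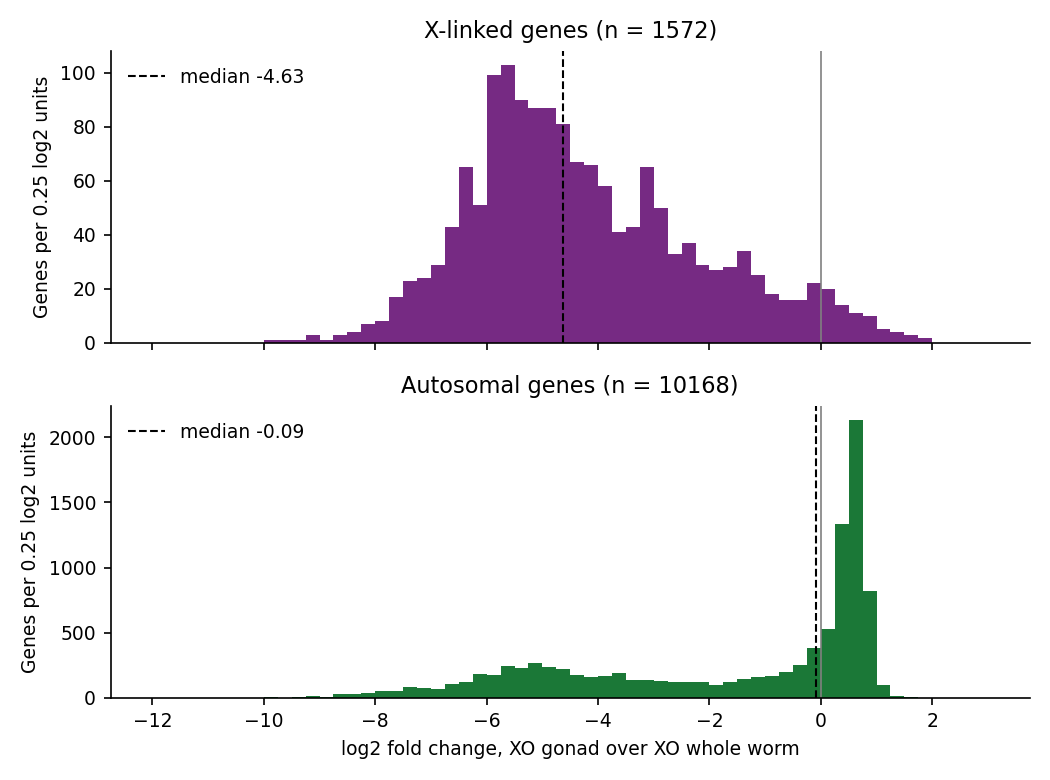
Histograms of the log2 fold change of XO gonad over XO whole worm, in bins of 0.25, for X-linked genes (top) and autosomal genes (bottom). Autosomal genes form a narrow peak near 0.6 and a broad shoulder on the left, while X-linked genes lie almost wholly to the left of 0, with a median of -4.63 against -0.09.

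Genes of the oocyte were higher in the gonads almost without exception. Of 35 genes for oocyte RNA regulators and germ plasm, 34 were called higher and 0 lower, with a median log2 fold change of 0.69, against -0.71 over all genes tested. The RNA helicase gene cgh-1, which protects stored messages in oocytes, had 3777, 3931 and 4038 CPM in XO gonads and 2036, 1961 and 1832 CPM in XO whole worms (1.01, SE 0.07, edgeR adjusted p = 3.56e-08). The gonad libraries were all far above the whole worm libraries. Its partner car-1 and the translation repressor gene ifet-1 followed at 0.93 (SE 0.07) and 0.89 (SE 0.06). The Pumilio-family gene puf-5, needed for oocyte growth, had 1569, 1672 and 1544 CPM in XO gonads and 806, 874 and 845 CPM in XO whole worms (0.92, SE 0.07). The RNA-binding protein genes daz-1 and cpb-3, which act in oogenesis, were higher by 0.88 and 0.86 (SE 0.06 each).

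The exception was meg-3, an X-linked gene for a protein of the embryo's germ plasm, with 24.5, 26.6 and 26.1 CPM in XO gonads and 23, 25.1 and 26.9 CPM in XO whole worms. Its groups overlapped and it did not pass the test (0.04, SE 0.11). The other X-linked members, meg-1, meg-2 and meg-4, were called higher by 0.66, 0.46 and 0.47 and are named after their values were seen.

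The eggshell and fertilization list split in an unequal way. Of its 15 genes, 13 were called higher and 2 lower. The chitin-binding eggshell gene cbd-1 was the most abundant of those named, with 6251, 6220 and 5703 CPM in XO gonads and 3260, 3471 and 3427 CPM in XO whole worms (0.84, SE 0.07, edgeR adjusted p = 2.64e-07). The yolk receptor gene rme-2 had 1878, 1948 and 1766 CPM in XO gonads and 988, 1041 and 1126 CPM in XO whole worms (0.83, SE 0.07). The egg activation pseudophosphatase genes egg-4 and egg-5 were higher by 0.76 and 0.85 (SE 0.06 each), the egg surface gene egg-2 by 0.77 and the eggshell proteoglycan gene cpg-3 by 0.81.

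The genes that went the other way were perm-2 and perm-4, which encode proteins of the eggshell's permeability barrier, and both are named after their values were seen. For perm-4 the values were 9.66, 27.2 and 7.27 CPM in XO gonads and 73.4, 66.6 and 67.3 CPM in XO whole worms (-2.22, SE 0.54, edgeR adjusted p = 0.015). XO gonad replicate 2 held the highest of the 3 gonad values, and all 3 were below the whole worm values. The values of perm-2 were 10.5, 18.4 and 5.94 CPM in XO gonads and 48.2, 38.6 and 45.5 CPM in XO whole worms (-1.91, SE 0.40).

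All 12 germline stem cell genes were called higher, with a median of 0.68. The Pumilio-family gene fbf-1, which maintains stem cells by repressing messages for meiotic entry, had 52.3, 51.1 and 49 CPM in XO gonads and 21.7, 23.5 and 22.6 CPM in XO whole worms (1.16, SE 0.09, edgeR adjusted p = 1.2e-07). Its close relative fbf-2 was at 1.17 (SE 0.13) and is named after its values were seen. The meiotic entry genes nos-3, gld-2 and gld-3 were higher by 0.83, 0.67 and 0.70, and the RNA regulators mex-3 and puf-8 by 0.69 and 0.75. With all 12 libraries in the fit, gld-2 was at 0.69 and its adjusted p was 0.0551.

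P granules are RNA and protein bodies at the germ cell nucleus, where small RNAs are handled. Of 31 genes for them and for germline small RNAs, 29 were called higher, with a median of 0.71. The Argonaute gene ppw-2 led them, with 286, 320 and 302 CPM in XO gonads and 128.3, 136.4 and 143.5 CPM in XO whole worms (1.15, SE 0.07, edgeR adjusted p = 7.14e-09). The groups were far apart, with no whole worm library above the lowest gonad library. The Vasa-like helicase gene glh-1 was higher by 1.02, the Argonaute genes wago-4, prg-1 and hrde-1 by 1.01, 0.90 and 0.90, and the P granule scaffold gene pgl-3 by 0.94 (SE 0.06 each).

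Of 41 genes for meiotic chromosome axes, synapsis, breaks and crossovers, 40 were called higher, with a median of 0.71. The kinase gene chk-2, which coordinates early meiotic prophase, had 28.6, 28.9 and 24.5 CPM in XO gonads and 12, 11.1 and 10.9 CPM in XO whole worms (1.27, SE 0.13, edgeR adjusted p = 9.66e-07). For xnd-1, whose product shapes crossover placement on the X and germline chromatin, the values were 341, 345 and 339 CPM in XO gonads and 177, 172 and 165 CPM in XO whole worms (0.99, SE 0.06). The axis and cohesin genes htp-2, htp-3 and rec-8 were higher by 0.97, 0.77 and 0.87, the Polo-like kinase gene plk-2 by 0.86 and the recombinase gene rad-51 by 0.77. The gene rec-1, which acts on crossover placement and is outside the list, was higher by 1.18 (SE 0.14).

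The meiotic gene that did not pass was the break repair gene rad-50, at 192, 50.7 and 62.5 CPM in XO gonads and 229, 213 and 199 CPM in XO whole worms (-1.07, SE 0.60). XO gonad replicate 1 alone came near the whole worm libraries. In the P granule list, drh-3 (0.22) and znfx-1 (0.07) did not pass, and replicate 1 was again the highest of the 3 gonad libraries for both. Over the germline, chromatin, apoptosis and dosage compensation lists, 12 genes did not pass. XO gonad replicate 1 was the highest gonad library for 8 of the 12. Among genes at 10 CPM or more in XO gonads, 208 of 404 with over 4 kb of exon were called higher, against 2944 of 3653 between 1 and 4 kb and 973 of 1295 under 1 kb. The part of exonic length in these calls was not tested.

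All 31 genes for DNA replication, the cell cycle and kinetochores were called higher, with a median of 0.62. The mitotic kinase genes cdk-1 and plk-1 were higher by 0.68 and 0.77 and the cyclin genes cyb-2.1, cyb-2.2 and cye-1 by 0.73, 0.77 and 0.78. The centromere gene hcp-4 had 460, 443 and 433 CPM in XO gonads and 247, 260 and 277 CPM in XO whole worms (0.77, SE 0.06).

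Put together without repeats, the germline lists named so far held 163 tested genes, of which 157 were called higher, 2 lower and 4 neither. Their log2 fold changes were close to one another: the interquartile range was 0.57 to 0.78, 141 of 163 lay between 0.4 and 1, and 8 reached 1. The whole worm level was at the median 61.9% of the gonad level for these genes. These lists were written with earlier results of these data known, so the counts describe them and are no independent evidence of their direction.

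**Figure D2:**
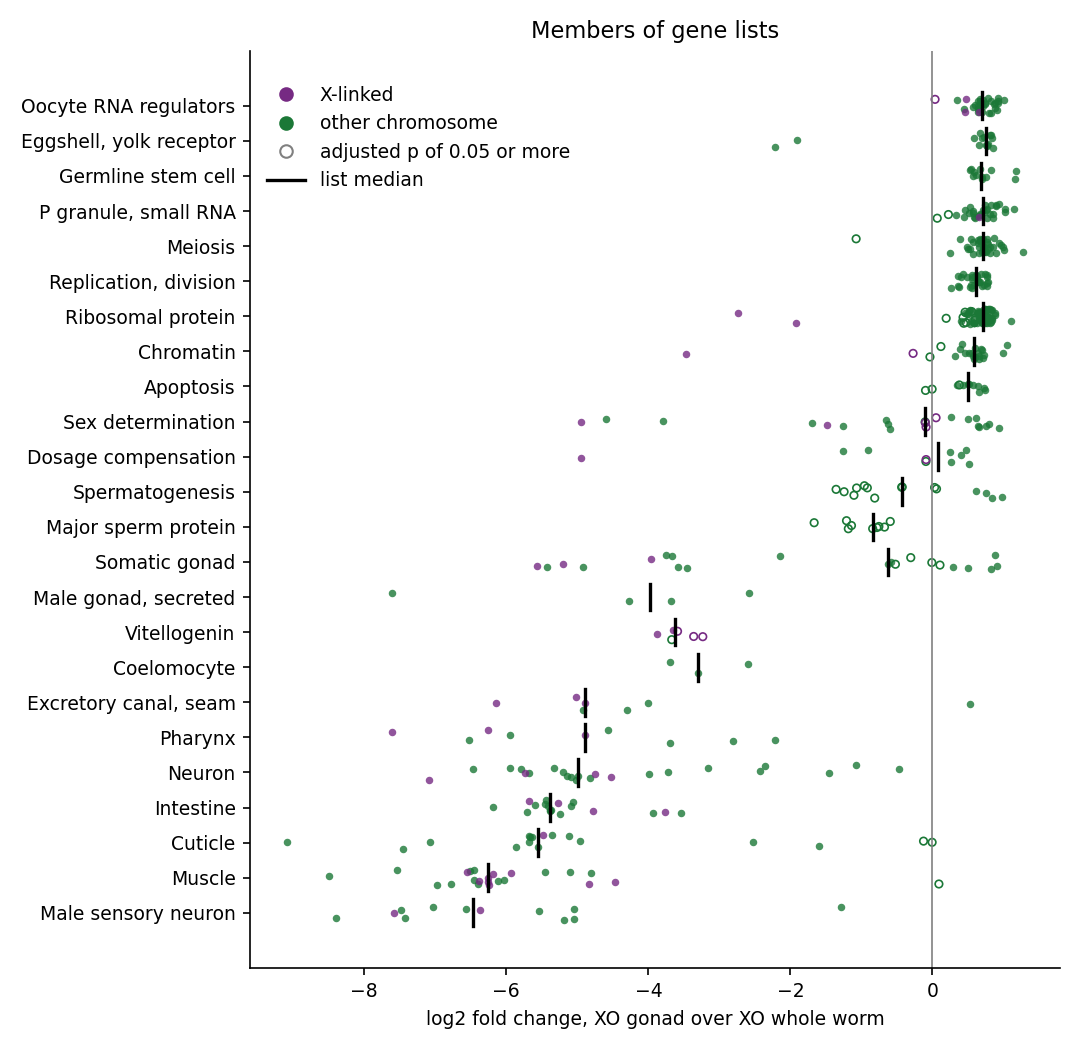
Log2 fold change of XO gonad over XO whole worm for the tested members of 24 gene lists, each point a gene, with X-linked genes in purple, open points for an adjusted p of 0.05 or more, and a bar at each list's median. The germline lists sit in a band around 0.7, and the intestine, cuticle, muscle and male neuron lists sit below -5.

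Genes for protein synthesis moved with the germline. Of 74 ribosomal protein genes, 65 were called higher, 2 lower and 7 neither, with a median of 0.71. The set of rpl and rps genes took 11.7%, 13.9% and 12% of gene counts in XO gonads and 7.25%, 7.58% and 8.79% in XO whole worms. The 2 that were lower are both X-linked: rpl-11.2, at 20.6, 27.5 and 23.5 CPM in XO gonads and 167, 149 and 165 CPM in XO whole worms (-2.74, SE 0.10), and rpl-25.1 (-1.93, SE 0.19), which is named after its values were seen. The small-subunit gene rps-2 was higher by 0.88 (SE 0.07) and the large-subunit gene rpl-4 by 0.78 (SE 0.07). Some families of gene symbols with at least 20 tested members, picked after their values were seen, showed the same. All 28 mrps and 39 of 40 mrpl genes for mitochondrial ribosomal proteins were called higher, against 36.6% of all genes tested. So were all 24 eif genes for translation initiation, 24 of 26 npp genes for nuclear pore proteins and 19 of 20 mdt genes for the Mediator complex. Others were more mixed: 18 of 26 set, 13 of 24 ztf and 10 of 29 histone (his) genes were called higher, and 5, 7 and 11 lower.

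Per kilobase of exon, the most abundant message of both groups was that of the translation elongation factor gene eef-1A.1, at 12966 ± 693 RPKM (CPM per kilobase) in XO gonads and 7184 ± 500 RPKM in XO whole worms (SD, n = 3 each). The small heat shock protein gene sip-1 was next, at 10627 ± 762.1 RPKM in XO gonads and 6861 ± 1040 RPKM in XO whole worms. The other 8 of the top 10 in XO gonads were ribosomal protein genes (rpl-6, rpl-18, rpl-21, rpl-29, rpl-36, rpl-43 and rps-29) and W01D2.1. In XO whole worms the list was otherwise made of cuticle collagen genes (col-119, col-140, col-20 and col-122), the lipid-binding protein gene far-2, Y82E9BR.3, C17F4.7 and rpl-29. Without XO whole worm replicate 1 the adjusted p was 0.132 for rpl-29, 0.0884 for rpl-43 and 0.112 for W01D2.1. The genes eef-1A.1 and eef-1A.2 are near copies and may share reads.

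Chaperone genes went both ways. Of 12 tested heat shock and chaperone genes, 7 were called higher and 5 lower, against 36.6% and 51.5% of all genes tested. The mitochondrial chaperonin gene hsp-60 had 874, 934 and 843 CPM in XO gonads and 396, 407 and 444 CPM in XO whole worms (1.09, SE 0.07, edgeR adjusted p = 1.54e-08). The constitutive chaperone genes hsp-1, hsp-6 and hsp-90 were higher by 0.80, 0.78 and 0.65, and the heat shock regulator hsf-1 by 0.66. The X-linked gene hsp-3, for a chaperone of the endoplasmic reticulum, was at 62.3, 87.2 and 81 CPM in XO gonads and 742, 679 and 686 CPM in XO whole worms (-3.19, SE 0.12). Of the 8 tested genes of the mitochondrial genome, 1 was called lower (MTCE.34, a call lost under 6 of 13 alternatives) and 7 did not pass.

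Chromatin and cell death genes were mostly on the higher side. Among 23 chromatin genes, 19 were called higher, 1 lower and 3 neither, with a median of 0.58. The Polycomb gene mes-2 was higher by 0.65, the demethylase gene spr-5 by 0.69, the zinc-finger gene mep-1 by 0.72 and the DREAM complex genes dpl-1 and lin-54 by 0.69 and 0.66. The gene that was lower was hpl-1, an X-linked heterochromatin protein 1 gene named after its values were seen, at 0.3, 0.192 and 0.14 CPM in XO gonads and 1.72, 2.5 and 2.82 CPM in XO whole worms (-3.46, SE 0.42). Its autosomal relative hpl-2 was higher by 0.71, named for that contrast. Of 12 tested apoptosis genes, 9 were called higher and 0 lower, among them the caspase gene ced-3 (0.74), its activator ced-4 (0.65) and the p53 relative cep-1 (0.52). With all 12 libraries in the fit cep-1 had an adjusted p of 0.207.

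The mutated gene was measured in every library. Transcripts of fog-1, the sperm-fate gene, were at 616, 619 and 632 CPM in XO gonads and 317, 335 and 321 CPM in XO whole worms (0.94, SE 0.06, edgeR adjusted p = 1.21e-08). Its partner fog-3 had 57.9, 61.5 and 64 CPM in XO gonads and 39.1, 38.2 and 42.2 CPM in XO whole worms (0.62, SE 0.08). Both were higher in all 3 gonad libraries, with a fold near that of oocyte genes. The allele is a temperature-sensitive one, and all libraries carry it, so the level does not check the genotype.

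Of 21 sex determination genes, 8 were called higher, 9 lower and 4 neither. Over all genes tested 36.6% were higher and 51.5% lower, so the split of this list is not far from that of all genes. Those higher included the masculinizing genes fem-2 (0.76) and fem-3 (0.66), the RNA helicase gene laf-1 (0.64) and tra-2 (0.26, SE 0.07), the receptor gene that promotes female fate. With all 12 libraries in the fit, tra-2 had an adjusted p of 0.337. The terminal regulator tra-1 had 85.8, 90.9 and 95.2 CPM in XO gonads and 139, 141 and 138 CPM in XO whole worms (-0.62, SE 0.07), with no overlap. The male signal gene her-1, secreted by somatic cells, had 7.49, 11.9 and 9.71 CPM in XO gonads and 15.2, 14.1 and 15 CPM in XO whole worms (-0.60, SE 0.17, edgeR adjusted p = 0.00494). The X-linked sex switch gene xol-1 was low in both groups, at 1.35, 1.02 and 1.82 CPM in XO gonads and 0.737, 2.33 and 0.866 CPM in XO whole worms, and it did not pass (0.05, SE 0.44).

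The dosage compensation list, whose proteins lower X expression in XX bodies, gave 5 genes higher, 3 lower and 2 neither of 10. The shares over all genes tested were 36.6% higher and 51.5% lower. Its X-linked regulator sdc-2 had 0.899, 0.128 and 0.07 CPM in XO gonads and 12.9, 10.2 and 10.2 CPM in XO whole worms (-4.94, SE 0.45). The condensin-like gene dpy-27 was at 40.4, 32.6 and 34.7 CPM in XO gonads and 62.5, 71.5 and 68.5 CPM in XO whole worms (-0.91, SE 0.10). The subunit genes dpy-28, dpy-26, dpy-21 and dpy-30 were higher by 0.51, 0.40, 0.48 and 0.25. With all 12 libraries the list gave 3 genes higher and 1 lower, and dpy-26 and dpy-27 had adjusted p of 0.418 and 0.178.

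**Figure D3:**
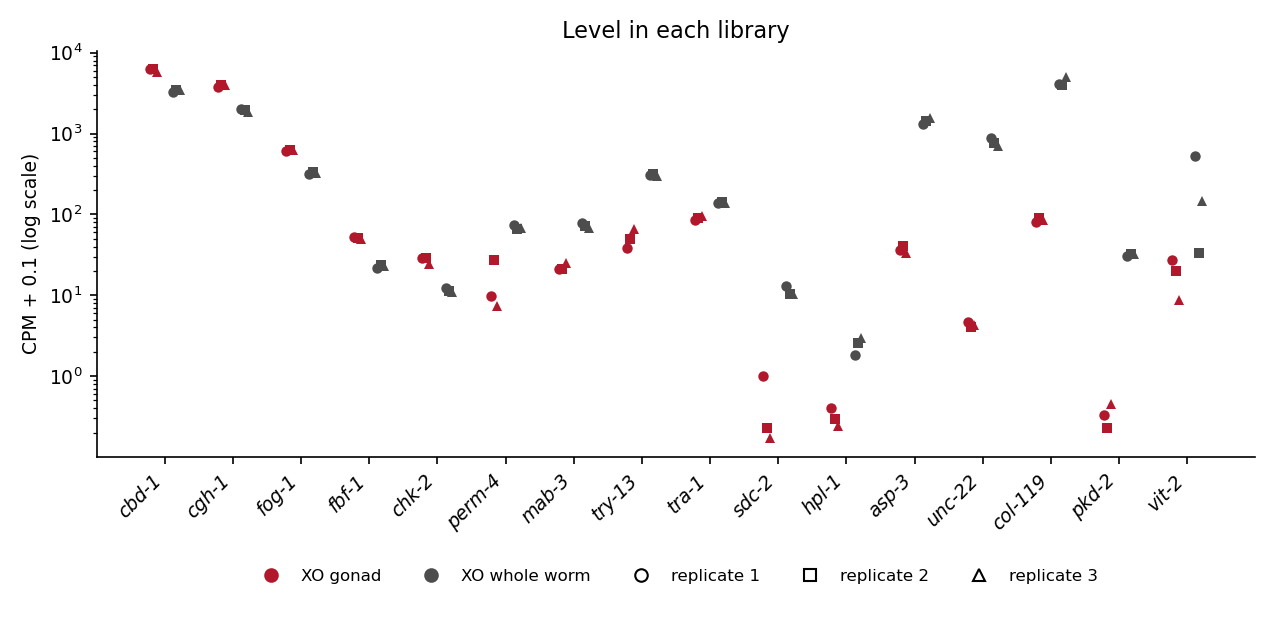
CPM plus 0.1 on a log axis for 16 genes in each library, with XO gonads in red at the left of each pair, XO whole worms in grey at the right, and 1 symbol per replicate number. The oocyte genes cbd-1 and cgh-1 are less than 2-fold to about 2-fold higher in gonads, the body genes asp-3, unc-22, col-119 and pkd-2 are far lower, and the 3 whole worm values of vit-2 are spread from 33.1 to 529 CPM.

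Messages of mature sperm were low in both groups. The major sperm protein (msp) genes encode the cytoskeletal protein of nematode sperm and have near-identical copies, whose reads could be split or set aside. Their 30 members together gave 2.03, 22.7 and 5.52 CPM in XO gonads and 28.3, 10.6 and 19.6 CPM in XO whole worms. Of 9 that were tested, 0 were called in either direction. For msp-36 the values were 0.075, 2.56 and 0.14 CPM in XO gonads and 3.56, 0.832 and 2.31 CPM in XO whole worms, and the groups overlapped because of XO gonad replicate 2. Without that replicate, 10 msp genes were called lower and msp-36 had a log2 fold change of -4.17 (edgeR adjusted p = 0.000339).

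Of 32 other spermatogenesis genes found, 15 were tested, 4 were called higher and 0 lower. Without XO gonad replicate 2, 9 were called lower. The 4 that were higher are spe-39, a vesicle traffic gene, at 125, 121 and 130 CPM in XO gonads and 68.4, 76.2 and 77.2 CPM in XO whole worms (0.76, SE 0.07), the RNA-binding gene cpb-1 (0.98, SE 0.09), the transcription factor gene spe-44 (0.84, SE 0.12) and the kinase gene spe-6 (0.61, SE 0.14). The membrane fusion gene fer-1 had 1.05, 1.6 and 0.489 CPM in XO gonads and 3.19, 1.33 and 1.37 CPM in XO whole worms and did not pass (-0.81, SE 0.47). The sperm Argonaute gene alg-3 likewise did not pass (-0.47, SE 0.58), and without XO gonad replicate 2 it was at -1.70 (edgeR adjusted p = 0.00364).

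Genes of the male reproductive tract list were lower in the gonads, to unlike degrees. All 4 genes of this list, for proteases and a protease inhibitor, were called lower. The seminal protease gene try-5 had 1.5, 0.384 and 1.54 CPM in XO gonads and 25.2, 20.4 and 19.9 CPM in XO whole worms (-4.27, SE 0.30). For the trypsin-like gene try-13 the values were 38.6, 49.8 and 65.7 CPM in XO gonads and 309, 312 and 302 CPM in XO whole worms (-2.58, SE 0.19, edgeR adjusted p = 2.93e-05). Its relative try-8 had 29.9, 29.1 and 54.5 CPM in XO gonads and 497, 484 and 482 CPM in XO whole worms (-3.69, SE 0.30). The protease inhibitor gene swm-1, which restrains sperm activation in males, was at 0.15, 0.128 and 0.14 CPM in XO gonads and 25.9, 28.2 and 32.3 CPM in XO whole worms (-7.61, SE 0.25). It had 6 counts over the 3 XO gonad libraries and averaged 10.6 CPM in XX whole worms. The XO gonad level of the 4 genes was thus from 0.483% to 16.7% of the XO whole worm level.

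Somatic gonad genes were mixed, as were all genes tested (36.6% higher and 51.5% lower). Of 21 tested, 5 were called higher, 12 lower and 4 neither. Those higher, named after their values were seen, were the gap junction genes inx-14 (0.91) and inx-22 (0.88), the growth factor gene lin-3 (0.82), the tyramine synthesis gene tdc-1 (0.50) and the transcription factor gene hlh-2 (0.28). The innexins inx-14 and inx-22 are made in germ cells themselves. Lower genes included mig-6, for a basement membrane protein, at 48.9, 50 and 47.1 CPM in XO gonads and 541, 515 and 551 CPM in XO whole worms (-3.46, SE 0.06), the phospholipase gene plc-1 (-5.20, SE 0.22), the calcium channel gene itr-1 (-5.43, SE 0.21), and the transcription factor genes egl-43 (-4.93) and fos-1 (-3.66). Many genes of this list are also made in other tissues of the body.

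Genes of the body were lower in the gonads in every tissue list. Put together without repeats, the somatic tissue lists (intestine, muscle, cuticle, neurons, male neurons, pharynx, coelomocytes, and excretory canal with seam) held 110 tested genes, of which 106 were called lower and 1 higher. Their median log2 fold change was -5.38 (interquartile range -6.18 to -4.53), and the gonad level was at the median 2.37% of the whole worm level. The gene that was higher was exc-4, a chloride channel gene of the excretory canal, at 41.7, 38.7 and 36.7 CPM in XO gonads and 25.8, 29.5 and 26 CPM in XO whole worms (0.52, SE 0.10). Whether the body markers found in gonad libraries came from the gonad or from other tissue carried with it was not tested.

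All 18 tested intestine genes were called lower, in a narrow range with a median of -5.38 (interquartile range -5.45 to -5.07). The gene vha-6, for a proton pump subunit of the gut lumen, had 5.32, 5.12 and 4.26 CPM in XO gonads and 204, 209 and 214 CPM in XO whole worms (-5.41, SE 0.09, edgeR adjusted p = 3.86e-13). The X-linked protease gene asp-3 had 36.3, 40 and 33.5 CPM in XO gonads and 1298, 1418 and 1538 CPM in XO whole worms (-5.27, SE 0.10). The cathepsin gene cpl-1, the lysozyme gene lys-1 and the intermediate filament gene ifb-2 were lower by similar amounts, at -5.70, -5.38 and -5.09. Summed, the intestine list gave 262, 269 and 233 CPM in XO gonads and 9403, 10460 and 11144 CPM in XO whole worms.

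Muscle genes were lower still. Of 23 tested, 22 were called lower, with a median of -6.25, and the actin depolymerizing gene unc-60, which has a form made outside muscle, did not pass (0.09, SE 0.06). The giant kinase gene unc-22 had 4.57, 3.91 and 4.12 CPM in XO gonads and 872, 761 and 706 CPM in XO whole worms (-7.54, SE 0.11, edgeR adjusted p = 2.4e-13). The myosin light chain gene mlc-3 was at -6.11 (SE 0.12). The troponin genes tni-3 and mup-2 were at -6.78 (SE 0.16) and -5.93 (SE 0.12), and the attachment gene deb-1 at -4.81 (SE 0.13).

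Cuticle collagens were among the most abundant messages of the body. Of 17 tested cuticle genes, 15 were called lower, and dpy-10 and mlt-10 did not pass at levels of a few CPM in both groups. Adult collagens had nearly equal fold changes: col-119, with 80.3, 91.1 and 85.7 CPM in XO gonads and 4154, 3983 and 5072 CPM in XO whole worms (-5.68, SE 0.11), was close to col-20 and col-122 (-5.67 each), col-140 (-5.56), col-19 (-5.49) and col-124 (-5.36). Over the whole family of col genes, 89 of 92 were called lower, with a median of -5.56.

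All 23 tested neuron genes were called lower, with a median of -4.98. The carboxypeptidase gene egl-21, which processes neuropeptides, had 4.64, 5.57 and 5.73 CPM in XO gonads and 178, 184 and 181 CPM in XO whole worms (-5.08, SE 0.09). The dense core vesicle gene ida-1 was at -5.68, the GABA synthesis gene unc-25 at -5.02, and the synaptic release genes snt-1, unc-13 and unc-18 at -5.79, -5.20 and -4.75. Neuropeptide genes were uniform: all 31 flp and all 59 nlp genes tested were called lower, with medians of -6.39 and -5.91. The 3 coelomocyte genes were lower by less, with a median of -3.30, and at gonad levels of 0.349 to 0.838 CPM.

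Of the 29 lists, male neurons had the lowest median, -6.46, near that of muscle (-6.25), and all 12 tested members were called lower. All 14 listed members averaged below 1 CPM in XO gonads. Leaving out single libraries moved this median between -7.81 and -6.02, and that of muscle between -6.32 and -6.01, so their order is not settled. Many genes of the male neuron list serve the male's ray and cephalic neurons, which sense the mate. Its member grd-10 was not confined to XO animals, with means of 25.4 CPM in XO whole worms and 19.6 CPM in XX whole worms. The channel gene pkd-2 had 0.225, 0.128 and 0.349 CPM in XO gonads and 30.7, 31.8 and 32.1 CPM in XO whole worms (-7.03, SE 0.23, edgeR adjusted p = 3.39e-11). Its partner lov-1 had only 2 counts over the 3 gonad libraries, against 20, 19 and 17.4 CPM in XO whole worms, a ratio of whole worm over gonad of 402 (95% interval 111 to 3328, counting error only). The coexpressed gene cwp-2 was at -7.49 (SE 0.33) and the signalling gene trf-1 at -5.04 (SE 0.31).

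Of the male somatic regulator list, 11 of 12 tested genes were lower as well. The Hox genes php-3, nob-1, egl-5 and mab-5 were at -5.27, -4.29, -3.99 and -3.97. The doublesex-related gene mab-3, which acts in male neurons and intestine, stood apart from them, with 21.2, 20.9 and 25.1 CPM in XO gonads and 78.8, 72.6 and 66.9 CPM in XO whole worms (-1.70, SE 0.10, edgeR adjusted p = 1.01e-08). Its gonad values did not overlap with the whole worm values but remained over 20 CPM, while php-3 was below 0.4 CPM in every gonad library. In XX whole worms php-3 and nob-1 averaged 6.45 and 2.87 CPM, and egl-5 and mab-5 averaged 1.00 and 1.05 CPM. The members of this list are thus not all confined to XO bodies.

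The vitellogenin genes encode yolk, which the intestine of females and hermaphrodites makes and males do not. They were low in XO whole worms and depended on the library. The X-linked gene vit-2 had 27, 19.9 and 8.73 CPM in XO gonads and 529, 33.1 and 145 CPM in XO whole worms (-3.66, SE 1.26, edgeR adjusted p = 0.0477). XO whole worm replicate 1 held the highest value of all 6 vit genes. The autosomal vit-6 had 34.4, 24.1 and 9.85 CPM in XO gonads and 660, 31.9 and 184 CPM in XO whole worms and did not pass (-3.67, SE 1.34). Of 6 vit genes 2 were called lower. The count was 6 without XO whole worm replicate 2 and 0 without any other single library. In XX whole worms vit-2 averaged 35592 CPM.

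The 12 genes chosen for the largest falls had few or no counts in gonads. The defence peptide gene abf-1 had 0 counts in all 3 XO gonad libraries and 31, 26.7 and 28.9 CPM in XO whole worms, which makes it at least 416-fold lower in the gonads, taking 3 counts summed over the group as the floor. On the same floor F49F1.9 was at least 327-fold, the lectin genes clec-106 and clec-74 at least 281-fold and 208-fold, F21C10.11 at least 194-fold and F59A1.16 at least 159-fold lower. Y47D7A.7 was at least 157-fold lower, with 21, 4.83 and 6.71 CPM in XO whole worms, and its call was lost without XO whole worm replicate 3 (adjusted p = 0.136) and without any 1 gonad replicate.

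Others of this group kept a trace in gonads. C35B1.3 had 1 count over the XO gonad libraries and 49.8, 49 and 48.6 CPM in XO whole worms, a ratio of whole worm over gonad of 2122 (95% interval 380 to 83844, counting error only). T12A2.5 and C35B1.8, also with 1 gonad count each, had ratios of 1976 (354 to 78114) and 1246 (223 to 49261). The infection response gene irg-5 had 0.15, 0.705 and 0.629 CPM in XO gonads and 405, 446 and 529 CPM in XO whole worms (-9.80, SE 0.26), and C05C10.8 was at -9.46 (SE 0.29). Over the family of C-type lectin genes, 106 of 115 clec genes were called lower, with a median of -6.08.

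The 12 largest rises among genes at 10 CPM or more, chosen by the same rule, were small beside these. H11L12.1, on the X, had 15.2, 19.3 and 19.4 CPM in XO gonads and 5.53, 3.99 and 5.56 CPM in XO whole worms (1.84, SE 0.18, edgeR adjusted p = 7.4e-07). The autosomal gene sams-3, for an enzyme that makes S-adenosylmethionine, had 121, 130 and 134 CPM in XO gonads and 53.2, 47.8 and 43.5 CPM in XO whole worms (1.42, SE 0.09). C53H9.2 and C01G5.2 followed at 1.32 (SE 0.06) and 1.28 (SE 0.08), and T16G12.3 and F14D2.15 were also among them. Y10G11A.90 was at 1.33 (SE 0.39), and with the replicate number as a block its adjusted p was 0.0814. Besides chk-2 and rec-1, described above, the others of the 12 were the X-linked genes glit-1 (1.61), Y73B3A.1 (1.57) and Y73B3A.4 (1.51).

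X-linked genes were low in the gonads. Of 1572 tested, 36 (2.29%) were called higher and 1449 (92.2%) lower, with a median log2 fold change of -4.63. Of 10168 autosomal genes, 4275 (42%) were called higher and 4602 (45.3%) lower, with a median of -0.09. X-linked genes took 0.456%, 0.495% and 0.506% of gene counts in XO gonads and 6.61%, 6.37% and 6.52% in XO whole worms, a ratio of whole worm over gonad of 13.4. A 2-sided exact permutation test of these shares had p = 0.1, which is the lower limit for 3 against 3 libraries. In XX animals the X-linked share averaged 2.61% in gonads and 13.1% in whole worms, so a lower X share in gonads was not confined to XO animals. Of the X-linked genes tested, 101 (6.42%) reached 10 CPM in XO gonads, against 677 (43.1%) in XO whole worms, and 2 reached 100 CPM in XO gonads.

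Among autosomes the balance also varied. On chromosomes I and III, 51.4% and 50.8% of genes tested were called higher and 32.8% and 35.7% lower. On chromosome V, 29.1% were called higher and 63.0% lower, with a median of -3.15.

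**Figure D4:**
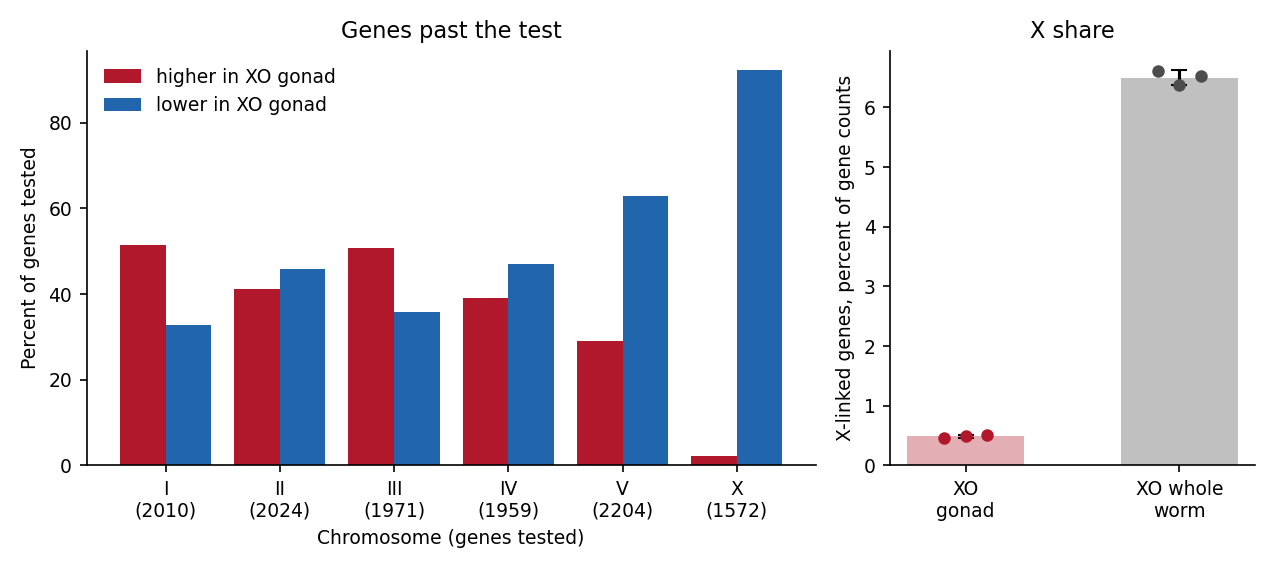
Left, percent of the genes tested on each chromosome that were called higher or lower in XO gonads. Right, share of gene counts from X-linked genes in each XO gonad library and each XO whole worm library (points), with the mean and SD as bars; the gonads lie between 0.456% and 0.506% and the whole worms between 6.37% and 6.61%.

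The X-linked messages that gonads did hold included 2 above 100 CPM. The transporter gene mrp-4, of the ABC family, had 523, 509 and 489 CPM in XO gonads and 327, 319 and 329 CPM in XO whole worms (0.64, SE 0.06, edgeR adjusted p = 4.42e-07). It was higher in every gonad library by about the fold of autosomal germline genes. The other was Y73B3A.1, at 118.8, 126.4 and 121.4 CPM in XO gonads and 26.7, 47.3 and 48.1 CPM in XO whole worms (1.57, SE 0.22). The linker histone gene his-24, X-linked too, was at 62.5, 97.4 and 84 CPM in XO gonads and 84.4, 107 and 111 CPM in XO whole worms and did not pass (adjusted p = 0.151). These X-linked genes, apart from Y73B3A.1, are named after their values were seen. The other 7 of the 10 X-linked genes most abundant in gonads were called lower, such as the actin gene act-4 (-4.84, SE 0.13) and hsp-3.

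The difference between gonad and whole worm was then compared between XO and XX animals, with the interaction of karyotype and tissue in an edgeR fit of all 12 libraries, to which the adjusted p-values below belong. Of 12528 genes tested, 371 (2.96%) had a higher gonad over whole worm ratio in XO than in XX animals and 1761 (14.1%) a lower one. XX gonad replicate 1 stands apart from its group, and without it the counts were 510 and 1953. Of the 163 germline genes above, the oocyte, stem cell, P granule, meiosis and replication lists held 1 interaction call (puf-7, -0.43, adjusted p = 0.0372, named after its values were seen), and the eggshell list held 2. For cbd-1 the interaction was 0.31 with an adjusted p of 0.253.

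Those 2 eggshell calls were perm-2 and perm-4. In XX animals perm-4 averaged 1885 ± 267 CPM in gonads and 1473 ± 88.6 CPM in whole worms (SD, n = 3 each), and the interaction was -2.57 (SE 0.55, adjusted p = 0.00937). For perm-2 the XX values were 1109 ± 130 CPM in gonads and 1017 ± 45 CPM in whole worms (interaction -2.03, SE 0.43, adjusted p = 0.00814). The octopamine synthesis gene tbh-1, X-linked and made in gonadal sheath cells of hermaphrodites, was at 0.449, 0.64 and 0.21 CPM in XO gonads and 8.97, 6.07 and 6.28 CPM in XO whole worms, against 170 ± 5.67 CPM in XX gonads and 155 ± 14.9 CPM in XX whole worms (interaction -4.09, SE 0.31, adjusted p = 1.66e-06). It is named after its values were seen.

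Genes of the body lists differed in both directions. Of 23 muscle genes, 17 had a lower gonad over whole worm ratio in XO than in XX animals and 0 a higher one. The shares over all genes tested were 14.1% lower and 2.96% higher. Among the 17 were the X-linked mup-2 (-3.58, adjusted p = 1.07e-07) and the autosomal tni-3 (-4.15, adjusted p = 1.39e-07). In XX gonads mup-2 averaged 77.6 ± 7.38 CPM. Of the 23 muscle genes tested in XO, 9 are X-linked. The muscle list took 0.0889%, 0.103% and 0.104% of gene counts in XO gonads and 2.60%, 2.51% and 2.55% in XO whole worms, and 0.186%, 0.168% and 0.152% in XX gonads and 1.14%, 1.34% and 1.29% in XX whole worms. Of 23 neuron genes 8 were lower and 0 higher, and of 24 somatic gonad genes 7 were lower and 1 higher. The somatic gonad count was 4 without XO gonad replicate 1 or 2 or XO whole worm replicate 2 or 3, and 3 without XX gonad replicate 2. These lower counts are not far from the share over all genes. Of 18 intestine genes, 10 had a higher ratio in XO and 0 a lower one, among them vha-6 (1.40, adjusted p = 0.00127) and lys-1 (1.45, adjusted p = 0.00128). The intestine list took 0.0233% to 0.0261% of counts in XO gonads and 0.967% to 1.10% in XO whole worms, and 0.00597% to 0.0126% in XX gonads and 0.805% to 0.866% in XX whole worms. The parts of X linkage and of body tissue carried with the gonads in these interactions were not tested.

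For fog-1 the interaction was 0.41 (adjusted p = 0.0314), with XX levels of 43.1 ± 4.31 CPM in gonads and 29.5 ± 1.19 CPM in whole worms. The call was lost under most alternatives, with adjusted p of 0.0669 under DESeq2's size factors and 0.123 with total counts as scaling. The interaction of fog-3 was 0.73 (adjusted p = 0.0203), and its call was lost with no filter (0.0967), without XO whole worm replicate 2 (0.0535) and without XX whole worm replicate 3 (0.0681). All 6 vit genes had a higher ratio in XO, from 3.94 for vit-1 to 4.57 for vit-5. Their adjusted p lay near the threshold, between 0.0258 (vit-3) and 0.0463 (vit-1), and the calls were easily lost. The count was 0 without any 1 of 8 libraries (XO gonad replicates 1 and 2, each XX gonad replicate, XO whole worm replicate 3, and XX whole worm replicates 2 and 3). It was 1 without XX whole worm replicate 1.

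**Figure D5:**
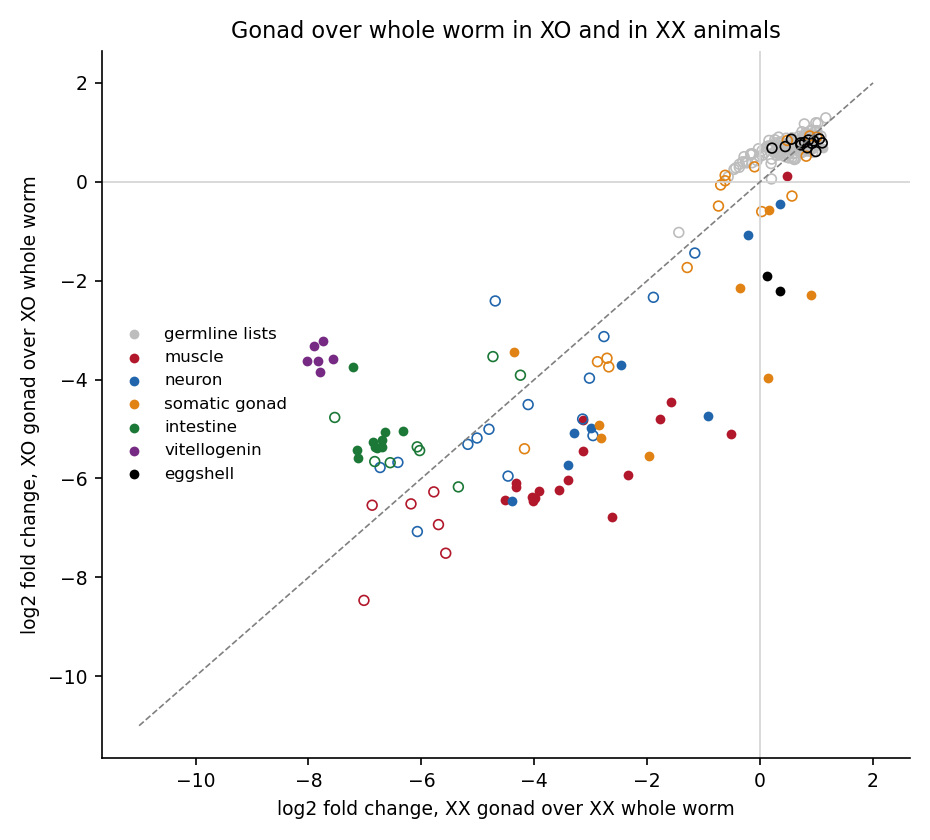
Log2 fold change of gonad over whole worm in XX animals (horizontal) and XO animals (vertical), both from the fit of all 12 libraries, for members of the lists named in the legend. Filled points had an interaction adjusted p under 0.05 and the dashed line marks equal values; muscle genes lie mostly below it, intestine and vit genes above it, and perm-2 and perm-4 (filled black) far below it.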

How the data were processed

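The deposited values are raw counts of reads per gene, with no normalization, in 1 table per library, as their whole numbers and unequal totals show. Per the submitters' processing notes the tools named are HTSeq, TopHat2 2.0.12, CASAVA 1.8, Cufflinks 2.2.0 and SAMtools 1.2, with no roles given; the genome build, annotation and strand setting are not given in the sources used here. Overlapping and antisense genes therefore cannot be told apart. Summary lines were left out of library sizes: in the XO libraries reads at several places were 6.23% to 8.80% of the file total in gonads and 12.8% to 14.2% in whole worms, so near-identical families such as msp, vit and histone genes are uncertain. Reads outside genes were 2.37% to 3.76% in gonads and 4.42% to 5.15% in whole worms.

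Of 20389 gene IDs, 19899 matched the WBcel235 annotation for symbols, chromosomes and exon lengths and 490 did not. The listed names ssp-11, opt-2, unc-17 and cha-1 were not matched. Genes passing filterByExpr (minimum count 10) were tested with edgeR 4.0.16 in R 4.3.3: TMM scaling, a robust quasi-likelihood fit of the 6 XO libraries, Benjamini-Hochberg adjustment and a threshold of 0.05. XX libraries stayed out of that fit because XX gonad replicate 1 stands apart; the interaction used all 12. SE is the absolute log2 fold change over the square root of F. On simulated counts for 11908 genes the XO comparison recovered 98% of 2-fold and 100% of 4-fold changes, with 5.3% false calls. For 12528 genes the interaction recovered 29% and 98%, with 3.8% false calls. Each simulation changed 100 genes of each size, up as often as down, among well-counted genes, and left all others equal between groups. In the data 88.1% of genes were called in the XO comparison and 17% in the interaction, so these rates need not hold there. Counting intervals (95%, exact) and floors of 3 counts cover counting error only.

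Genes are named in the text by a rule: the 12 largest changes up and down (called, at least 2-fold, no overlap, at least 10 CPM in the higher group), the 10 most abundant per kilobase in each group, up to 6 members of each list ranked by adjusted p, among those averaging 1 CPM or more, plus members that did not pass, the 5 largest interactions per direction, 6 sex determination genes, and the 5 genes with no gonad counts highest in whole worms. Others are said to be named after their values were seen. The members and lists were chosen with earlier results of these data known. Alternatives were other scalings, no filter, all 12 libraries, a replicate block, DESeq2 1.42.0 and leaving out each library.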

Additional observations from a re-analysis of the deposited data

Results flagged for a closer look

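The gonad over whole worm ratio differed between XO and XX animals by the interaction test of edgeR's 12-library fit for the following results. Over all genes tested, 371 (2.96%) had a higher and 1761 (14.1%) a lower ratio in XO animals. By list, 17 of 23 muscle, 8 of 23 neuron and 7 of 24 somatic gonad genes had a lower ratio. A higher one was called for 10 of 18 intestine and 6 of 6 vit genes. XX gonad replicate 1 stands apart from its group. Without it 510 genes had a higher and 1953 a lower ratio, and the list counts were 19 muscle, 8 neuron and 9 somatic gonad genes lower and 12 intestine and 0 vit genes higher. The somatic gonad count was 3 or 4 without any 1 of 5 other libraries, not far from the share over all genes. The vit count was 0 without any 1 of 7 others.

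Of the genes with the largest falls in XO gonads, the interaction had an adjusted p of 0.000114 for abf-1, 0.00688 for F49F1.9, 0.00841 for C35B1.8 and 0.000873 for C05C10.8. These genes averaged under 1 CPM in XX gonads and in XX whole worms, passed the filter through XO whole worms and were chosen for their fall in XO, so the test shows only that they were high in XO whole worms alone. Among the largest interactions toward a lower ratio in XO, the adjusted p was 0.00362 for clec-181, 0.00273 for clec-217, 0.0231 for D1022.2 and 0.000627 for clec-208. These too were near 0 in XX libraries, so the fitted value does not measure a fold, and without XX gonad replicate 1 all 4 lost the call (adjusted p = 0.9999 each). Among the largest toward a higher ratio in XO, the adjusted p was 0.0152 for T12B5.15, 0.0102 for C10G8.4, 0.0349 for Y48E1B.8, 0.000535 for spex-3 and 0.0111 for Y51H7C.1. All 5 were under 1 CPM in both gonad groups and highest in XX whole worms. T12B5.15, C10G8.4, Y48E1B.8 and Y51H7C.1 had between 1 and 17 counts over either XO group, too few for the XO fit, so their XO ratio was not measured. Without XO gonad replicate 1 the call was lost for T12B5.15 (adjusted p = 0.143) and Y51H7C.1 (0.0684). Leaving out XO gonad replicate 3 also ended the call of Y51H7C.1 (0.134). That of C10G8.4 ended when XO gonad replicate 2 was left out (0.264). For Y48E1B.8 it was lost without any 1 of 6 libraries, among them each XO gonad replicate (0.0948 to 0.105). The adjusted p was 0.0314 for fog-1 and 0.0203 for fog-3.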

How the results depend on the processing

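Counts of higher genes ran from 3705 to 4608 and of lower genes from 5985 to 7857 over 13 alternatives, and 0 genes changed direction among the calls. Of 200 named genes, 171 kept direction and call under all 13 and 4 reversed. List medians (log2) for oocyte, stem cell, meiosis and chromatin genes were 0.74, 0.73, 0.76 and 0.63 with DESeq2's size factors in edgeR and also in DESeq2, 0.65, 0.64, 0.67 and 0.54 with upper quartile scaling, and 0.66, 0.64, 0.68 and 0.55 with total counts. With no filter they were 0.78, 0.77, 0.81 and 0.68, with 0.85 for eggshell, 0.80 for P granule, 0.71 for replication, 0.60 for apoptosis, -1.09 for somatic gonad and -4.44 for pharynx genes. No filter also gave 305 genes at least 2-fold higher, 0 vit and 0 mitochondrial genes lower, 1 vit interaction, and -3.05 for the X minus autosome median difference (-4.54 in the reported fit); more low genes enter. With all 12 libraries that difference was -4.27, the somatic gonad median -1.17, 6 vit genes were lower, and dosage compensation genes gave 3 higher and 1 lower. DESeq2 called 6 vit genes lower.

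Same-numbered gonad and whole worm libraries showed no clear shared deviation: their deviations correlated at 0.031, -0.151 and -0.0432, against -0.0847 to 0.129 for other pairings. Whether the samples were collected in pairs cannot be told from these values. With the replicate number as a block, 4295 genes were higher and 6032 lower, 0 vit and 0 mitochondrial genes were lower and 3 vit interactions passed.

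Leaving out single libraries gave ranges of 137 to 222 genes at least 2-fold higher (222 without XO gonad replicate 3), -4.52 to -4.33 for the X minus autosome difference, 0 to 6 vit, 0 to 1 mitochondrial, 1 to 2 chromatin, 0 to 9 spermatogenesis, 0 to 10 msp and 0 to 2 sperm Argonaute genes lower, and 0 to 2 mitochondrial genes higher. Medians ran from 0.67 to 0.75 (oocyte), 0.71 to 0.76 (meiosis), 0.65 to 0.75 (stem cell), 0.58 to 0.69 (replication), 0.54 to 0.66 (chromatin), -5.43 to -5.20 (intestine), -5.25 to -4.62 (pharynx), -7.81 to -6.02 (male neuron) and -2.31 to -0.43 (msp). Interaction calls ran from 3 to 9 for somatic gonad genes lower and 0 to 6 for vit genes higher. The sign changed for xol-1 (-0.12, -0.16 and -0.21, range -0.21 to 0.75), msp-142 (0.29, range -2.70 to 0.29), ND6 (0.11, range -0.47 to 0.11) and COX3 (-0.0021, range -0.0021 to 0.79), and for the interactions of fem-3 (0.044, range -0.19 to 0.044) and xol-1 (0.19 and 0.47, range -0.66 to 0.47). Where no construction is named, the cause was not tested.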

Other observations

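The 36 X-linked genes that were higher in XO gonads than in XO whole worms were partly neighbours among the 1572 X-linked genes tested. They formed 24 runs, 7 of them with at least 2 genes, and 19 of the 36 had a neighbour that was also higher. Over all X-linked genes tested, 2.29% were called higher. The longest run held 4 genes (CE7X_3.1, Y35H6.3, Y73B3A.1 and Y73B3A.18). Other runs paired ceh-21 with ceh-39, both for ONECUT homeodomain proteins, and meg-2 with meg-1. By clone name the 36 genes came from 25 clones, 6 of them with at least 2: 4 of 5 tested genes were higher for Y73B3A, 4 of 5 for T08D2, 3 of 3 for R04D3, 2 of 3 for K02B9, 2 of 4 for T26C11 and 2 of 5 for R09F10. This grouping was looked for after the values were seen and is given as a description.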
